A study of Mus musculus with 6 samples.

Results

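SLC25 carriers, most of them transporters of the mitochondrial inner membrane, were compared between leukemic and normal erythroid cells of mouse bone marrow. They were taken as every row whose symbol is Slc25a followed by a number, with Slc25a37 and Slc25a38 left out, which gave 36 of 13007 genes. All 36 passed the filter on low values and were among the 12427 genes tested, although Slc25a13 and Slc25a23 passed through the NC libraries alone and Slc25a18 through the AEL libraries alone. The GENCODE annotation lists 47 such symbols, and the 9 without a row (among them Slc25a29 and Slc25a43) were not analysed here.

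The tested cells, AEL (acute erythroid leukemia), were marrow leukemic cells of genotype Trp53-/-, transduced to overexpress ERG together with GFP and sorted as GFP+ (3 libraries). The comparison cells, NC, were WT marrow erythroid precursors sorted after staining for CD71 and Ter119 (3 libraries). Different markers were used to sort the 2 groups. All 6 samples are labelled as primary cells of strain C57BL/6, and all 6, WT ones included, also carry a tissue label naming mutations of SETBP1 and ASXL1, which conflicts with the WT genotype and could not be settled here. The labels number the samples as biological replicates but name no animals, ages, transduced clones or pools, so p-values measure only the spread between these samples.

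SLC25 proteins are encoded in the nucleus. Most are imported through the TOM and TIM22 complexes. These exchange nucleotides, phosphate, carboxylates, amino acids and cofactors across the inner membrane, each by opening in turn to either side of it. In erythroid cells they also feed heme synthesis, which takes place partly in the mitochondrial matrix. Several come as paralog pairs with like substrates, such as the ADP/ATP carriers Slc25a4 and Slc25a5 or the aspartate/glutamate carriers Slc25a12 and Slc25a13.

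Library totals were 8541477 to 9945330 counts in AEL and 8171676 to 9385507 in NC, and the biological coefficient of variation was 44.1% within AEL and 9.01% within NC. Reads assigned to Erg came to 556 to 790 CPM (counts scaled to a common library size) in AEL and 4.38 to 8.52 CPM in NC. Trp53 stood at 1171, 1092 and 975 CPM in the libraries labelled Trp53-/-, against 177, 175 and 162 CPM in NC, so the gene-level counts show no loss of its transcript, and they do not show which exons were read; libraries are called AEL and NC by their labels. Summed over 14 erythroid markers, AEL had 5686 to 14729 CPM and NC had 56884 to 72060 CPM. Markers of most other cells were also lower in AEL: 13 neutrophil markers summed to 18.2, 1162 and 125 CPM in AEL replicates 1 to 3 and 7956 to 9270 CPM in NC, 12 monocyte and macrophage markers to 27.6 to 62.6 CPM in AEL (with Spic and Ms4a7 at 0 in every AEL library) and 2148 to 2454 CPM in NC, and 9 B cell markers to 1.69 to 2.56 CPM in AEL and 222 to 266 CPM in NC. The measured T and NK cell markers, 4 of 8, summed to 0.225 to 0.977 CPM in AEL and 46.6 to 53.0 CPM in NC, and 7 stromal and endothelial markers to 4.30 to 9.98 CPM in AEL (Col3a1 at 0) and 69.8 to 84.5 CPM in NC. The 7 markers of mast cells, basophils and eosinophils summed to 1.35 to 19.8 CPM in AEL (Epx at 0) and 74.5 to 93.1 CPM in NC. The 8 measured of 9 megakaryocyte markers summed to 173 to 445 CPM in AEL (Gp1bb and Ppbp at 0) and 126 to 150 CPM in NC, and of the 7 tested, 3 were higher in AEL and 3 were lower, with a median log2 fold change of −0.83. The part of these cells in the results on the carriers was not tested. In bulk samples such as these, fewer cells of a type and less RNA per cell cannot be told apart.

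Promoters were read for the carriers on which the results turn, to show what lies before their start sites. The RefSeq table (GRCm38.p6) held 29 of the 36 carriers, and the 250 bases before each start were searched on both strands for the E-box CACGTG, the ETS motif CCGGAAG and the GATA motif AGATAA, none of which contains another. The 4 carriers that passed the test and were at least 2-fold higher in AEL (Slc25a15, Slc25a33, Slc25a22 and Slc25a14), the citrate carrier Slc25a1, and the 4 that were at least 2-fold lower (Slc25a4, Slc25a13, Slc25a23 and Slc25a45) were chosen. The windows of Slc25a4 and Slc25a14 reach 222 and 35 bases into the first exon as GENCODE places it, and their sequences are not printed; the other 7 are given below, 5′ to 3′ on the strand of the gene, with motif matches in capitals.
Slc25a15, chr8:22398622-22398871, minus strand: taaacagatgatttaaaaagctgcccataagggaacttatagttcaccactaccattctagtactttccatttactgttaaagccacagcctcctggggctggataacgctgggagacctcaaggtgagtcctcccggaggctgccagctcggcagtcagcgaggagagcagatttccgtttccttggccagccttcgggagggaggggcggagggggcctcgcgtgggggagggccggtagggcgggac
Slc25a33, chr4:149774268-149774517, minus strand: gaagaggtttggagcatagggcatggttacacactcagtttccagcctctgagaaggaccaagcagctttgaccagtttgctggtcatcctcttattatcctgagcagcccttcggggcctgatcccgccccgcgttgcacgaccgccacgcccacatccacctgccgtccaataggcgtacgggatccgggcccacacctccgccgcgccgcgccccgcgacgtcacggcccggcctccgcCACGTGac
Slc25a22, chr7:141437875-141438124, minus strand: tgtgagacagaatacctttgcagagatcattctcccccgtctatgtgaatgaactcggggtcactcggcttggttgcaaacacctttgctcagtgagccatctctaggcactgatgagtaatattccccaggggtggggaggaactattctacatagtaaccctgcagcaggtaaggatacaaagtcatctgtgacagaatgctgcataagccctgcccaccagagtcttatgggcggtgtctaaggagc
Slc25a1, chr16:17928220-17928469, minus strand: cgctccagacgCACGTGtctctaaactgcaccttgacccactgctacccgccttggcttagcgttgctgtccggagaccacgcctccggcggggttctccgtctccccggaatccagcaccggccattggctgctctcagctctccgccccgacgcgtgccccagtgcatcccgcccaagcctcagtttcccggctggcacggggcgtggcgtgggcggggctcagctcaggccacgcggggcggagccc
Slc25a13, chr6:6217174-6217423, minus strand: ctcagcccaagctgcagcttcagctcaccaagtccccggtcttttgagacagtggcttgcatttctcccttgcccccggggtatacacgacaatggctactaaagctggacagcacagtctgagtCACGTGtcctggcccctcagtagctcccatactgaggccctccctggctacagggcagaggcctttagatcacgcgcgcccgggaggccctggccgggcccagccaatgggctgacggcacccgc
Slc25a23, chr17:57059864-57060113, minus strand: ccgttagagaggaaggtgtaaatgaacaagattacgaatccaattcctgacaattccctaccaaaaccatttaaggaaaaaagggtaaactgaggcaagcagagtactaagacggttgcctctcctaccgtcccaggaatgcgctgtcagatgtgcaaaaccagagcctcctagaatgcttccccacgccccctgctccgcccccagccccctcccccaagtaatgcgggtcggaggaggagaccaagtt
Slc25a45, chr19:5877572-5877821, plus strand: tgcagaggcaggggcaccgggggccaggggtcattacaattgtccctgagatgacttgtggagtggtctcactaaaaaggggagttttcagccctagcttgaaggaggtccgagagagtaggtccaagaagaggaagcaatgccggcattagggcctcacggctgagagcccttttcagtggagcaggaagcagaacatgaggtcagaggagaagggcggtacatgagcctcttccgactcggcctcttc
The capitals are an E-box in Slc25a33, Slc25a1 and Slc25a13, with the first base 8, 239 and 125 bases before the RefSeq start. Slc25a14 also holds an E-box, 54 bases before its RefSeq start, and Slc25a4 an ETS motif at 130 bases, while Slc25a15, Slc25a22, Slc25a23 and Slc25a45 hold no match. GENCODE places the starts of Slc25a33 and Slc25a4 farther upstream, so these 2 matches lie inside the first exon of that annotation. An E-box stood before 3 of the 5 carriers with a promoter that were higher in AEL, 1 of 7 that were lower and 5 of all 29 (17.2%), against 8.53% of the promoters of all genes tested that had one and 6.04% of all promoters in the table. The ETS motif was found before 4 of 29 carriers (13.8%; 0 of the 5 higher and 2 of the 7 lower) and 14.5% of the promoters of genes tested. GATA matches stood before 2 of 29 carriers, against 6.11% of the promoters of genes tested. The windows of Slc25a39, which is 1 of the 7 lower, Slc25a11 and Slc25a47 lie wholly inside the gene as GENCODE places it. Others lie there in part, with 190 bases for Slc25a18. Among those printed it is 18 bases for Slc25a22, 14 for Slc25a45 and 10 for Slc25a33. All of these windows enter the counts. These are matches of letters in a short window at 1 RefSeq start per gene, and no binding was measured.

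Across the 36 carriers, 14 passed edgeR's quasi-likelihood test at an adjusted p under 0.05 (38.9%, against 52.8% of all genes tested). Of these, 6 were higher in AEL (16.7%, against 23.9% of all genes) and 8 were lower (22.2%, against 29.0%). At 2-fold or more, 4 carriers were higher (13.0% of all genes were) and 4 were lower (21.7% of all genes were). The AEL and NC libraries did not overlap for 17 carriers (47.2%, against 66.0% of all genes). The median log2 fold change (AEL over NC) was 0.04 for the carriers and −0.05 for all genes tested, and with library totals alone those medians were 0.22 and 0.14. Of the 14 calls, 7 held under every alternative processing and every left-out library: Slc25a15 and Slc25a22 were higher in AEL, and Slc25a4, Slc25a13, Slc25a39, Slc25a45 and Slc25a51 were lower. Slc25a13 here, and Slc25a23 among the 2-fold calls, passed the filter through the NC libraries alone. A gene let in that way is more likely to be called lower in AEL than higher. With library totals alone 10 carriers were higher, and leaving out NC replicate 1, 2 or 3 left 2, 3 or 4 higher in place of 6; without NC replicate 3, 5 were lower in place of 8.

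**Figure D1:**
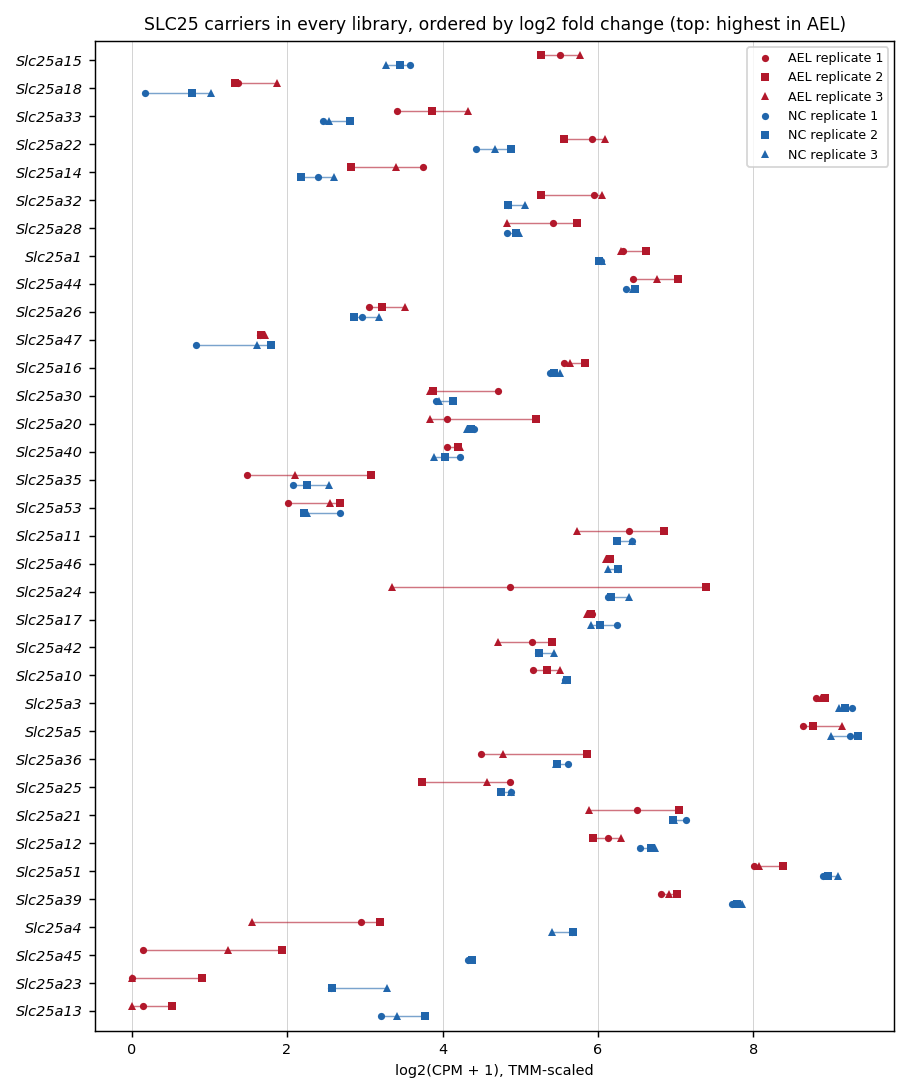
Levels of SLC25 carriers in each library, as log2(CPM + 1), with a row per carrier ordered by log2 fold change, AEL in red above NC in blue, and a line spanning the 3 libraries of a group. Slc25a15 tops the plot with separate groups, Slc25a13 closes it with AEL libraries at 0 to 0.434 CPM, and the AEL points spread more widely than the NC points in most rows.

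Summed over all 36 carriers, the AEL libraries held 2280, 2733 and 2443 CPM and the NC libraries 3051, 3085 and 2994 CPM. With library totals alone the sums were 2372, 2905 and 2686 CPM in AEL and 2895, 2890 and 2770 CPM in NC, so the groups were then no longer separate. Per kilobase of exon, Slc25a5 had the highest level of any carrier in either group, at 282 ± 53.2 CPM per kb in AEL and 358 ± 42.8 CPM per kb in NC (SD, n = 3 each). It made up 32.1% to 44.0% of the per-length sum of the carriers in AEL and 34.7% to 40.8% in NC. In AEL, Slc25a3 followed at 84.0 ± 3.65 CPM per kb, Slc25a51 at 51.9 ± 7.39, Slc25a39 at 43.5 ± 3.07, Slc25a11 at 39.3 ± 14.6 and Slc25a1 at 39.1 ± 5.15 CPM per kb, and from Slc25a51 on, neighbours in that order overlapped within 1 SD. The same order of the first 4 stood in NC, at 104 ± 5.84 CPM per kb for Slc25a3, 91.6 ± 6.44 for Slc25a51 and 79.9 ± 3.57 for Slc25a39, with no overlap within 1 SD. Lowest per length in AEL were Slc25a13 and Slc25a23, at 0.0480 and 0.0547 CPM per kb, against 2.68 and 1.17 CPM per kb in NC. These orders and shares depend on the exon lengths used, 1646 bp for Slc25a5, 5550 bp for Slc25a3 and 5510 bp for Slc25a51. Without division by length, Slc25a3 and Slc25a5 were nearly level, with means of 466 and 464 CPM in AEL and 580 and 589 CPM in NC.

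Among the carriers of adenine nucleotides and phosphate, Slc25a3, Slc25a4 and Slc25a5 supply matrix ATP synthase and export its product. The others, Slc25a23, Slc25a24 and Slc25a25, exchange ATP-Mg for phosphate. Of 6 members, 0 were higher in AEL, 3 were lower and 3 did not pass, with a median log2 fold change of −0.36. Among all genes tested, 23.9% were higher and 29.0% were lower. Slc25a4 (chr8:46206797-46211284, minus strand, GRCm38), the ADP/ATP carrier typical of heart and muscle, had 6.75, 8.14 and 1.92 CPM in AEL replicates 1 to 3, against 49.9, 50.1 and 41.3 CPM in NC replicates 1 to 3. Every AEL library lay far below every NC library, and AEL replicate 3 was the lowest. Slc25a4 fell 8.44-fold in AEL, or −3.08 ± 0.49 as a log2 fold change with its SE (adjusted p = 0.00259 by edgeR). Slc25a5 (chrX:36795651-36798807, plus strand), the ADP/ATP carrier typical of dividing cells, had 396, 433 and 563 CPM in AEL and 605, 649 and 511 CPM in NC. The groups overlapped through AEL replicate 3 and NC replicate 3, and the log2 fold change of −0.34 ± 0.17 did not pass (adjusted p = 0.131; 0.0392 without AEL replicate 3). Slc25a4 and Slc25a5 are close in sequence and Slc25a5 has processed pseudogenes, so reads may be split between them in a way the counts do not show.

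Slc25a3 (chr10:91116574-91124059, minus strand), the phosphate carrier, had 445, 485 and 468 CPM in AEL libraries against 614, 576 and 550 CPM in NC. All AEL libraries were lower, by a small margin: the change of −0.31 ± 0.10 passed (adjusted p = 0.0405) but did not pass when any of the 6 libraries was left out (adjusted p 0.0732 to 0.178), with library totals alone (0.371), after quantile normalization (0.344) or with a replicate block (0.134). Slc25a23 (chr17:57043711-57059863, minus strand), a calcium-regulated exchanger of ATP-Mg for phosphate, had 0, 0.868 and 0 CPM in AEL and 4.90, 4.96 and 8.75 CPM in NC. Reads were found in AEL replicate 2 alone among the AEL libraries, 8 in all against 156 in NC. Slc25a23 was 22.7-fold lower in AEL by summed counts (95% exact interval 11.3 to 53.6, counting error only; edgeR adjusted p = 0.0136, and 0.0562 without NC replicate 3).

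Slc25a24, another ATP-Mg/phosphate carrier, was singled out after its values were seen, since its AEL libraries were spread more widely than those of most carriers. It had 28.1, 166 and 9.24 CPM in AEL and 69.1, 71.0 and 83.0 CPM in NC. AEL replicate 2 lay above all NC libraries and the other AEL libraries below them, so no common change was measured (−0.14 ± 0.90, adjusted p = 0.909). Without AEL replicate 2 it was −1.98 (adjusted p = 0.00747), and 0.30 and 0.43 without AEL replicate 1 and 3. AEL replicate 2 was also the AEL library with the highest neutrophil marker sum, 1162 CPM, and the part of that in the level of Slc25a24 was not tested. The third member of this kind, Slc25a25, did not pass.

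**Figure D2:**
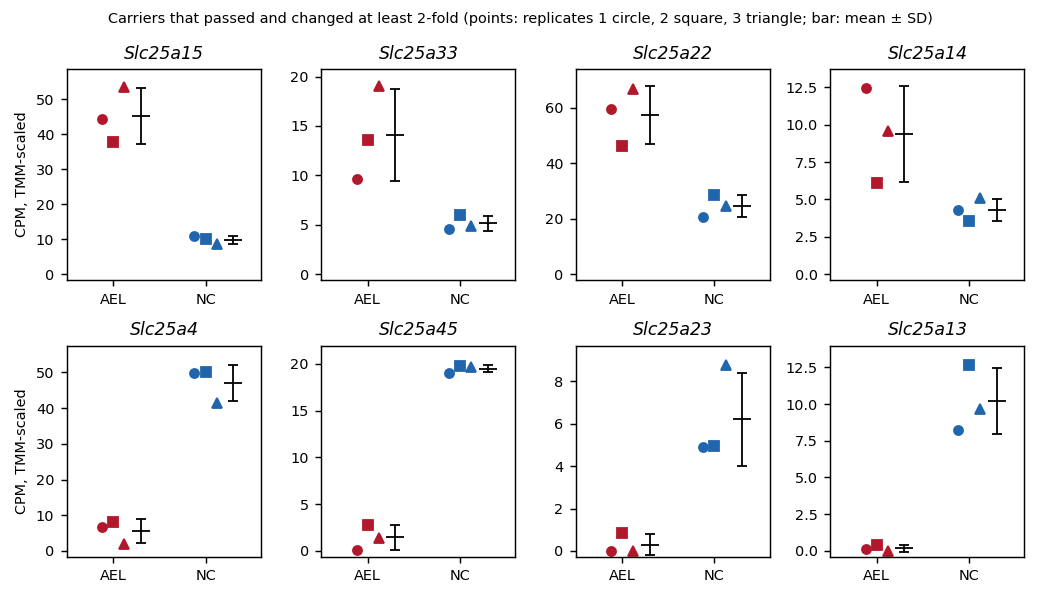
CPM of the 8 carriers that passed the test and changed at least 2-fold, in each AEL and NC library (points) with the mean and SD of each group (bar); vertical axes differ between panels and start at 0. In each of the 8 panels the AEL and NC points are separate, with Slc25a15, Slc25a33, Slc25a22 and Slc25a14 higher in AEL and Slc25a4, Slc25a45, Slc25a23 and Slc25a13 lower.

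Among the 4 carboxylate carriers, 1 was higher in AEL, 0 were lower and 3 did not pass, against 23.9% higher and 29.0% lower among all genes. Slc25a1 (chr16:17925223-17928219, minus strand), which exports citrate for lipid synthesis, had 79.2, 97.5 and 77.4 CPM in AEL libraries against 64.6, 63.7 and 65.5 CPM in NC. The groups did not overlap, and the rise of 1.31-fold (log2 0.39 ± 0.13) passed narrowly (adjusted p = 0.0423). It did not pass without each NC library in turn (adjusted p 0.107 to 0.132) or with a replicate block (0.108). Slc25a11 (chr11:70644196-70647479, minus strand), the oxoglutarate/malate carrier of the malate-aspartate shuttle, had 83.6, 114 and 52.2 CPM in AEL and 85.5, 74.8 and 85.9 CPM in NC. Its AEL libraries lay on both sides of the NC libraries, and the log2 fold change was 0.02 ± 0.27 (adjusted p = 0.954) with a sign that turned under 7 alternatives. Its exons overlap those of Rnf167 on the other strand, and since strandedness is not given in the sources used here, reads of the 2 genes cannot be told apart. The dicarboxylate carrier Slc25a10 and the oxodicarboxylate carrier Slc25a21 did not pass either; Slc25a21 had 89.2, 131 and 57.9 CPM in AEL and 140, 124 and 125 CPM in NC, a change of −0.48 ± 0.28 that was −0.78 without AEL replicate 2 (adjusted p = 0.187 and 0.0111).

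The carriers of amino acids, carnitine and glutathione moved in both directions: of 9, 2 were higher in AEL, 3 were lower and 4 did not pass. The shares of all genes were 23.9% higher and 29.0% lower. Slc25a15 (chr8:22375551-22398597, minus strand), the ornithine/citrulline exchanger of the inner membrane, had 44.5, 37.7 and 53.5 CPM in AEL and 11.0, 9.92 and 8.64 CPM in NC. All AEL libraries stood well above all NC libraries. Slc25a15 rose 4.59-fold, the highest log2 fold change among the carriers at 2.20 ± 0.21 (adjusted p = 0.000453), and passed in every alternative. Slc25a22 (chr7:141429744-141437892, minus strand), which carries glutamate with a proton, had 59.4, 46.1 and 66.8 CPM in AEL and 20.5, 28.6 and 24.5 CPM in NC. The groups were separate, and the gene rose 2.34-fold (log2 1.23 ± 0.20, adjusted p = 0.00302).

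Both aspartate/glutamate carriers, which are regulated by calcium and belong to the malate-aspartate shuttle, were lower in AEL. Slc25a13 (chr6:6041218-6217173, minus strand), also called citrin, had 0.113, 0.434 and 0 CPM in AEL and 8.25, 12.6 and 9.67 CPM in NC. Only 5 reads were assigned to it over the 3 AEL libraries, against 255 in NC, so it was 59.5-fold lower by summed counts (95% exact interval 25.2 to 185, counting error only; edgeR adjusted p = 0.00145). Slc25a12 (chr2:71271063-71367749, minus strand), also called aralar, had 69.2, 60.0 and 77.7 CPM in AEL and 91.8, 102 and 106 CPM in NC. Here the groups were separate by a smaller distance, 1.45-fold lower in AEL (log2 −0.53 ± 0.14, adjusted p = 0.0164), and the call was lost with library totals alone (0.0817) or without AEL replicate 1, NC replicate 2 or NC replicate 3 (0.0531, 0.0657 and 0.0656).

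Slc25a39 (chr11:102402985-102407946, minus strand), which takes glutathione into the matrix and is needed for heme synthesis, had 112, 128 and 120 CPM in AEL and 211, 219 and 230 CPM in NC. No AEL library came near the NC range. Slc25a39 fell 1.84-fold in AEL (log2 −0.88 ± 0.11, adjusted p = 0.000989). Its paralog Slc25a40 (chr5:8422850-8454797, plus strand), which shares the glutathione substrate, had 15.6, 17.4 and 17.7 CPM in AEL and 17.7, 15.4 and 13.8 CPM in NC, with overlapping groups (log2 0.12 ± 0.21, adjusted p = 0.659). Slc25a20 (chr9:108662088-108684641, plus strand), the carnitine/acylcarnitine carrier of fatty acid oxidation, had 15.6, 35.9 and 13.3 CPM in AEL and 20.1, 19.6 and 18.9 CPM in NC. AEL replicate 2 was above the NC libraries and the other AEL libraries were below them (log2 0.14 ± 0.39, adjusted p = 0.776; −0.40 without AEL replicate 2). The branched-chain amino acid carrier Slc25a44, with 86.7, 130 and 107 CPM in AEL and 80.9, 88.4 and 86.6 CPM in NC, passed only without AEL replicate 1 (adjusted p = 0.0137, against 0.123) and with library totals alone (0.0338). The second glutamate carrier Slc25a18, at 1.58, 1.52 and 2.65 CPM in AEL and 0.129, 0.709 and 1.04 CPM in NC, was separate between groups but did not pass (log2 1.58 ± 0.64, adjusted p = 0.0743). It passed with library totals alone, after quantile normalization and by limma on log2(CPM + 1), and its exons overlap those of Atp6v1e1 on the other strand.

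**Figure D3:**
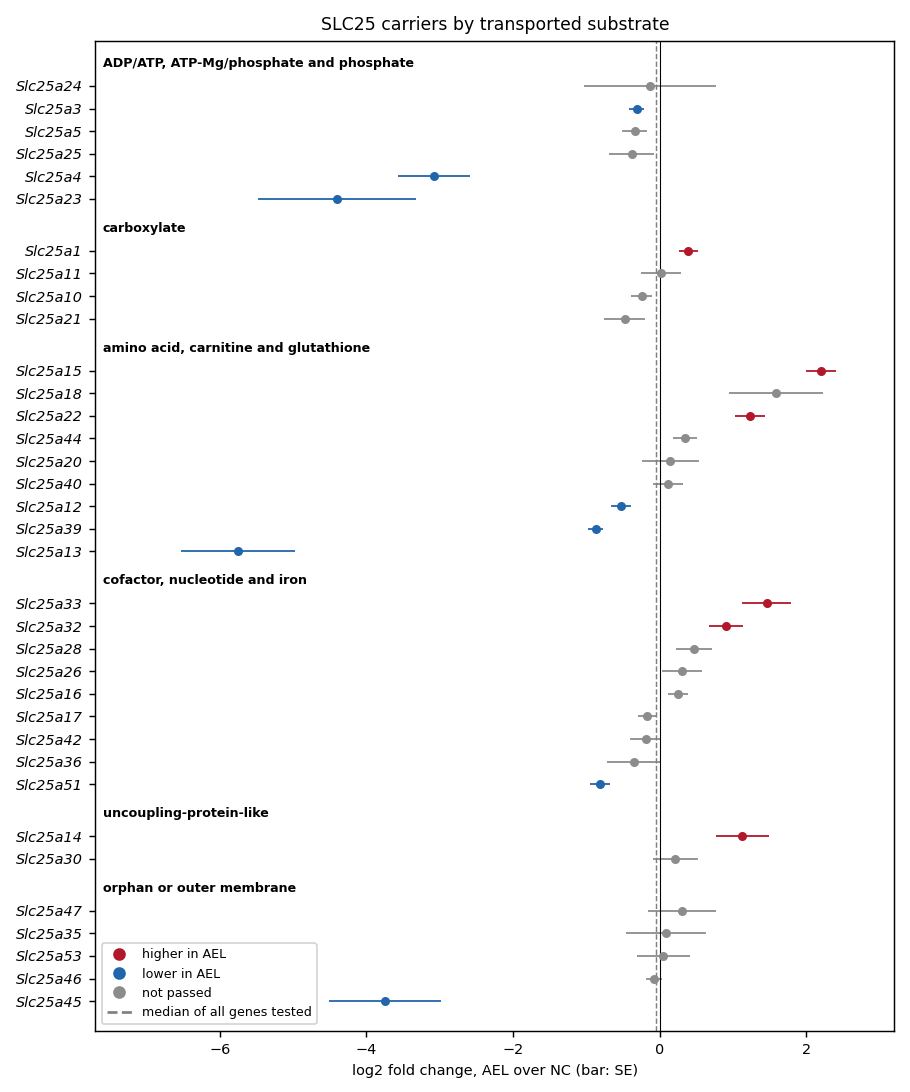
Log2 fold change (AEL over NC) of the carriers with the SE as a bar, grouped by transported substrate; red marks carriers higher in AEL, blue lower, grey not passed, and the dashed line is the median of all genes tested, −0.05. The adenine nucleotide and phosphate carriers all lie left of 0, from −4.40 to −0.14, while the amino acid group runs from −5.75 for Slc25a13 to 2.20 for Slc25a15. The SE bar of Slc25a24, at −0.14 ± 0.90, crosses 0.

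Of the 10 carriers of cofactors, nucleotides and iron, 2 were higher in AEL, 1 was lower and 7 did not pass, with a median log2 fold change of 0.27. Beside them stood 23.9% higher and 29.0% lower among all genes. Slc25a33 (chr4:149744036-149774277, minus strand), a pyrimidine nucleotide carrier, had 9.68, 13.6 and 19.0 CPM in AEL and 4.51, 6.02 and 4.84 CPM in NC. The AEL libraries were all above the NC libraries, though unequal among themselves, and Slc25a33 rose 2.75-fold (log2 1.46 ± 0.33, adjusted p = 0.0105, and 0.0502 without NC replicate 1). Slc25a36 (chr9:97074961-97111157, minus strand), the other pyrimidine nucleotide carrier, had 21.6, 57.1 and 26.3 CPM in AEL and 48.1, 43.6 and 42.8 CPM in NC. As with Slc25a20, AEL replicate 2 was above and the other AEL libraries below NC, and the change of −0.36 ± 0.36 did not pass (adjusted p = 0.434), while without AEL replicate 2 it was −0.85 (adjusted p = 0.00748).

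Slc25a51, the carrier that brings NAD into the matrix, and Slc25a32, which carries folate and FAD, passed below 2-fold and were picked after their values were seen. Slc25a51 (chr4:45395923-45408766, minus strand) had 256, 332 and 269 CPM in AEL and 473, 498 and 543 CPM in NC; every AEL library was lower, and it fell 1.77-fold (log2 −0.82 ± 0.14, adjusted p = 0.00299). Slc25a32 (chr15:39091231-39112716, minus strand) had 60.9, 37.4 and 65.3 CPM in AEL and 27.6, 27.8 and 32.4 CPM in NC, with AEL replicate 2 nearest to NC. It rose 1.87-fold (log2 0.90 ± 0.23, adjusted p = 0.0167), a call lost without NC replicate 1 or 2 (0.0656 and 0.0655). Slc25a28 (chr19:43663801-43674881, minus strand), or mitoferrin 2, which brings iron into mitochondria of many cell types, had 41.8, 52.1 and 27.4 CPM in AEL and 27.3, 29.9 and 30.7 CPM in NC. Only AEL replicate 3 lay within the NC range, and the change of 0.46 ± 0.25 passed without that library alone (0.71, adjusted p = 0.0164, against 0.156).

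The uncoupling-protein-like carriers are Slc25a14 and Slc25a30. Slc25a14 (chrX:48623413-48662294, plus strand) had 12.5, 6.08 and 9.60 CPM in AEL and 4.26, 3.54 and 5.07 CPM in NC. The groups were separate, with AEL replicate 2 nearest to NC, and Slc25a14 rose 2.19-fold (log2 1.13 ± 0.36, adjusted p = 0.0358). That call did not hold without AEL replicate 1 or 3 (0.0571 and 0.0514), without each NC library in turn (0.0762 to 0.132) or with a replicate block (0.0753). Of the 5 orphan or outer membrane members, 0 were higher, 1 was lower and 4 did not pass, against 23.9% higher and 29.0% lower among all genes. The lower member was Slc25a45 (chr19:5877808-5885878, plus strand), with 0.113, 2.82 and 1.37 CPM in AEL and 19.1, 19.7 and 19.7 CPM in NC. The NC libraries were nearly equal and all AEL libraries far below, at 42 reads in all against 486, which is 13.5-fold lower (95% exact interval 9.83 to 19.0, counting error only; adjusted p = 0.00677).

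The 22 carriers that did not pass had log2 fold changes of −0.48 to 1.58 and adjusted p-values of 0.0743 to 0.954, and 20 of them lay within 0.5 of 0 on the log2 scale. Those not described above (Slc25a10, Slc25a16, Slc25a17, Slc25a25, Slc25a26, Slc25a35, Slc25a42, Slc25a46, Slc25a47 and Slc25a53) are among them. With library totals alone Slc25a16 passed as well (log2 0.43, adjusted p = 0.034), and after quantile normalization Slc25a26, Slc25a47 and Slc25a53 did (0.0153, 0.00686 and 0.0243). Exons of Slc25a21, Slc25a25, Slc25a26 and Slc25a35 also overlap a gene in the table on the other strand. A p that misses the threshold does not show that these carriers were equal in AEL and NC, since the AEL libraries were uneven: the coefficient of variation of CPM had a median of 26.3% over the carriers in AEL (2.30% to 173%) and 8.50% in NC (1.09% to 73.6%).

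Paralogs with like substrates were set against each other as the log2 ratio of (CPM + 1) within each library. Slc25a4 over Slc25a5 was −5.68, −5.57 and −7.59 in AEL and −3.57, −3.67 and −3.60 in NC, a mean of −6.28 ± 1.14 in AEL and −3.61 ± 0.05 in NC (SD, n = 3 each). The ratio was lower in every AEL library than in every NC library, by 2.67 on average. Slc25a12 over Slc25a13 averaged 5.90 ± 0.45 in AEL and 3.19 ± 0.23 in NC, Slc25a36 over Slc25a33 averaged 1.18 ± 0.78 in AEL and 2.91 ± 0.24 in NC, and Slc25a39 over Slc25a40 averaged 2.75 ± 0.07 in AEL and 3.74 ± 0.23 in NC. In these 4 of 8 pairs the groups did not overlap. Among all single genes 66.0% did not overlap, and the share over other pairs of genes was not computed. For the 4 pairs the 2-sided exact permutation test gave p = 0.1, the smallest it can give for 3 against 3. The adjusted p was 0.2 over the 8 pairs. For Slc25a12 over Slc25a13 the difference of 2.71 was 1.03 with a pseudocount of 5 CPM, above the level of Slc25a13 in AEL. Slc25a13 passed the filter through the NC libraries alone. The other 4 pairs, Slc25a24 over Slc25a25, Slc25a10 over Slc25a11, Slc25a22 over Slc25a18 and Slc25a23 over Slc25a24, gave exact p-values of 0.3 to 0.7.

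Enzymes and proteins that work with the carriers were listed by pathway and fitted in the same test. The list for ornithine, glutamate and proline had 6 of 11 genes higher in AEL and 1 lower, with a median log2 fold change of 0.76, against 23.9% higher and 29.0% lower and a median of −0.05 among all genes. When each library was left out in turn, 4 to 7 genes of this list were higher and 1 to 2 were lower. Under the other ways of processing, 5 to 7 were higher and 0 to 2 were lower. Ass1, which condenses citrulline with aspartate, had 29.9, 17.9 and 23.0 CPM in AEL and 0.774, 0.709 and 1.15 CPM in NC, and rose by 4.72 ± 0.36 on the log2 scale (adjusted p = 0.000243). Pycr1, which makes proline in mitochondria, had 4.95, 4.45 and 21.8 CPM in AEL and 1.29, 1.18 and 1.04 CPM in NC. AEL replicate 3 stood far above the other AEL libraries, and the rise of 3.14 ± 0.73 (adjusted p = 0.0111; 0.0505 without NC replicate 3) was 2.02 without it. The sizes of the rises of Ass1 and Pycr1 rest on NC values near the filter of 1 CPM. Under the other ways of processing they were 2.26 to 4.91 and 1.14 to 3.35 on the log2 scale. Gls2, a glutaminase, rose by 1.53 ± 0.35 (adjusted p = 0.0107). Oat, the matrix enzyme that interconverts ornithine and glutamate semialdehyde and so shares a substrate with Slc25a15, had 411, 522 and 487 CPM in AEL and 178, 178 and 143 CPM in NC (log2 1.51 ± 0.15, adjusted p = 0.000505). Every AEL library was above every NC library for Oat, as for Slc25a15. Oat and Arg2 were picked after their values were seen, as were Acly, Acaca, Sfxn1, Mcu, Afg3l1, Afg3l2, Atp5a1, Atp5b and Atpif1 below. The member that fell, the mitochondrial arginase Arg2, had 0 CPM in every AEL library and 2.45, 3.78 and 6.68 CPM in NC. It passed the filter through the NC libraries alone, so a call of lower was the likelier one. Its log2 fold change was −8.31 to −0.87 under the other ways of processing.

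The list for the malate-aspartate shuttle and citrate use also held the glycerol 3-phosphate dehydrogenases Gpd1 and Gpd2. Of its 13 genes, 4 were higher in AEL (Acly, Acaca, Fasn and Gpd2) and 1 was lower (Gpd1). The median was 0.34, and among all genes 23.9% were higher and 29.0% were lower. Beside the citrate carrier Slc25a1, Acly, which splits exported citrate, had 412, 520 and 387 CPM in AEL and 161, 175 and 174 CPM in NC (log2 1.37 ± 0.14, adjusted p = 0.000594). Acaca and Fasn, the next enzymes of fatty acid synthesis, rose by 1.22 ± 0.19 and 2.53 ± 0.21 (adjusted p = 0.00243 and 0.000321). The cytosolic glycerol 3-phosphate dehydrogenase Gpd1 fell by 7.19 ± 0.41 and its mitochondrial partner Gpd2 rose by 1.49 ± 0.30 (adjusted p = 0.000104 and 0.00617 by edgeR). Gpd1 had 0.338, 0.109 and 0.457 CPM in AEL and 37.9, 49.0 and 53.9 CPM in NC, so it passed the filter through the NC libraries alone. The size of its fall rests on AEL values near 0, and its log2 fold change was −7.25 to −3.28 under the other ways of processing. Without AEL replicate 2, or with library totals alone, 7 genes of this list were higher. The transaminases and malate dehydrogenases that work with Slc25a12, Slc25a13 and Slc25a11 (Got1, Got2, Mdh1 and Mdh2) did not pass in the fit of all libraries.

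**Figure D4:**
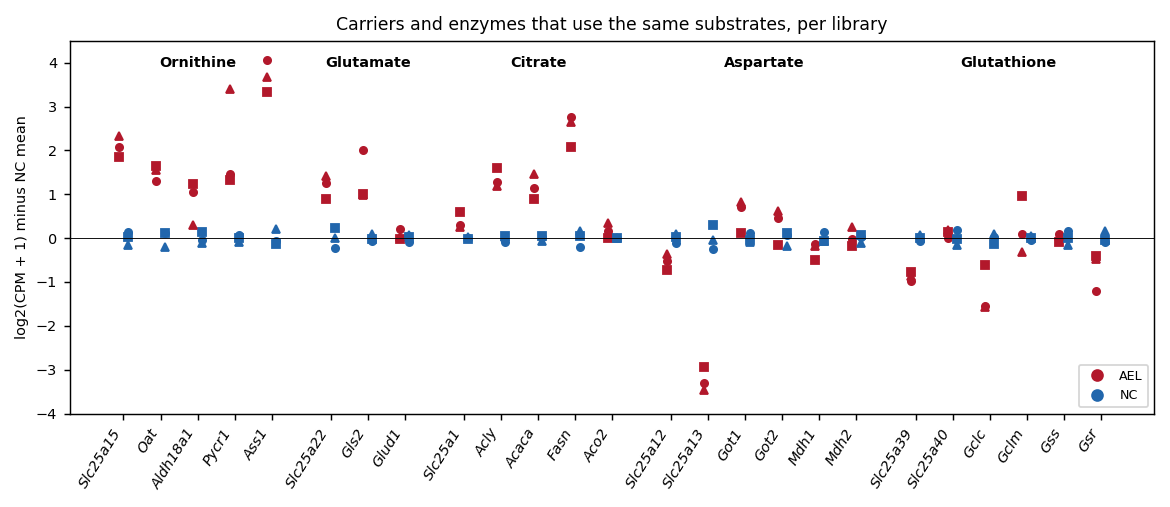
Log2(CPM + 1) minus the NC mean for carriers and enzymes that use the same substrates, in each AEL (red) and NC (blue) library. The AEL points of Slc25a15, Oat and Ass1, and of Acly, Acaca and Fasn, lie above the NC points, and those of Slc25a12, Slc25a13, Slc25a39 and Gclc below.

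ATP synthase uses the phosphate and ADP brought in by Slc25a3 and the ADP/ATP carriers. Of the 16 genes listed for it and measured, 0 were higher in AEL and 9 were lower, with a median of −0.58. Among all genes, 23.9% were higher and 29.0% were lower. The 9 lower genes include the inhibitor of the enzyme, Atpif1 (−0.65 ± 0.14, adjusted p = 0.00866). The small subunits Atp5k, Atp5e and Atp5j2 fell by 1.34 ± 0.22, 1.32 ± 0.18 and 1.00 ± 0.10 (adjusted p = 0.00276, 0.00147 and 0.000613). Atp5b and Atp5a1, with the highest CPM of the list, were among the 7 that did not pass. Their log2 fold changes were −0.10 ± 0.14 and −0.17 ± 0.12 (adjusted p = 0.584 and 0.278). The number lower was 5 without NC replicate 1 or 2, and up to 8 without each other library; 1 was higher without NC replicate 1 and 2 after quantile normalization. For glutathione synthesis and the turnover of Slc25a39, 1 of 7 genes was higher and 3 were lower, beside the same shares of all genes. Gclc, the catalytic subunit that sets the rate of glutathione synthesis, had 122, 237 and 121 CPM in AEL and 369, 328 and 388 CPM in NC, and fell by 1.18 ± 0.28 (adjusted p = 0.0117). Gsr, which reduces oxidized glutathione, fell by 0.66 ± 0.22 (adjusted p = 0.0401). Of the 3 listed subunits of matrix AAA proteases, whose member AFG3L2 degrades SLC25A39 in human cells, Afg3l2 rose by 0.42 ± 0.10 (adjusted p = 0.0106, and 0.0535 without NC replicate 2), Spg7 fell by 0.44 ± 0.14 (0.0362, but 0.0670 without AEL replicate 1 and 0.0797 with a replicate block) and Afg3l1 did not pass (−0.08 ± 0.15, 0.684). The number lower in this list was 1 with library totals alone, without AEL replicate 3 or without each NC library in turn, and Gclc was the gene that kept its call in each.

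The remaining lists moved in both directions, beside 23.9% higher and 29.0% lower among all genes. Of 14 carriers and channels under other symbols, 1 was higher in AEL (3 without AEL replicate 3) and 5 were lower (3 without each NC library in turn): the pyruvate carrier subunit Mpc2 fell by 1.16 ± 0.13, Ucp2 by 0.83 ± 0.12 and the sideroflexin Sfxn5 by 3.04 ± 0.81 (adjusted p = 0.000745, 0.00195 and 0.0181, the last 0.0524 to 0.0593 without each NC library in turn, and −4.53 on the log2 scale without AEL replicate 2), while the serine carrier Sfxn1 rose by 0.56 ± 0.10 (0.00425). Ucp2 did not pass after quantile normalization (adjusted p = 0.0613). Of 15 genes that import carriers through TIM22, 6 were higher and 4 were lower (1 higher without NC replicate 1 or 3, 2 lower without NC replicate 1 or 2, 2 higher with a replicate block); Agk rose by 1.04 ± 0.26 and Timm8b and Tomm7 fell by 1.30 ± 0.36 and 0.95 ± 0.19 (adjusted p = 0.0148, 0.0201 and 0.00635). The call of Agk was lost with a replicate block (0.0551) or without NC replicate 1 or 3 (0.0645 and 0.0653), and that of Timm8b without AEL replicate 1 or 3 (0.0515 and 0.0517) or any NC library (0.0579 to 0.0646). Among 13 genes of the calcium uniporter and mitochondrial ABC transporters, 2 were higher (1 without each NC library in turn) and 6 were lower, among them Slc8b1, Abcb10 and Abcb6 at −1.93 ± 0.29, −1.73 ± 0.25 and −1.23 ± 0.14 (adjusted p = 0.00203, 0.0018 and 0.000786), against the channel Mcu at 1.20 ± 0.16 (0.00136). The 9 carnitine and fatty acid entry genes had 1 higher and 3 lower (0 to 1 and 2 to 4 when each library was left out), with Crat and Acadvl at −1.38 ± 0.25 and −0.55 ± 0.10 (adjusted p = 0.00452 and 0.0044) and Slc22a5 at 0.90 ± 0.27 (0.0268, but 0.0778 to 0.094 without each NC library in turn and 0.0763 with a replicate block). In the list of general mitochondrial content, 6 of 18 genes were higher and 1 was lower, with a median of 0.17 (4 to 7 higher and 1 to 2 lower when each library was left out). Among those higher were Hspa9 at 1.16 ± 0.27 (0.0111, and 0.0508 without NC replicate 3), Opa1 at 0.98 ± 0.13 (0.00143) and Hspd1 at 0.96 ± 0.17 (0.00367).

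The AEL libraries differed among themselves in the carriers. AEL replicate 2 was the highest AEL library for 19 of the 36 carriers (52.8%, against 37.7% of all genes), replicate 3 for 12 (33.3%, against 30.9%) and replicate 1 for 5 (13.9%, against 31.4%). The log2 range was wider in AEL than in NC for 29 carriers (80.6%, against 80.2% of all genes). Genes within 10 Mb of each carrier, with a mean of 10 CPM or more, were then taken from the same libraries, a comparison chosen after the data were seen. Their median log2 difference from the NC mean varied by more than 0.7 between AEL libraries for 5 carriers (Slc25a20, Slc25a28, Slc25a30, Slc25a36 and Slc25a45), by 0.72 to 1.00, and by 0.03 to 0.49 for the other 31.

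Slc25a36 differed from the NC mean by −1.02, 0.34 and −0.74 in AEL replicates 1 to 3, and its 59 neighbours by a median of −0.80, 0.20 and −0.73. Less its neighbours, the carrier was at −0.21, 0.15 and −0.01, so it followed the genes around it in each AEL library. Slc25a30 was at 0.72, −0.12 and −0.16 with its 54 neighbours at −0.14, −0.95 and −1.07, which left 0.86, 0.83 and 0.91. Over the whole chromosomes, medians were −0.68, 0.01 and −0.72 on chromosome 9, where Slc25a36 and Slc25a20 lie, −0.02, −0.65 and −0.69 on chromosome 14, where Slc25a30 lies, and 0.04, −0.05 and −0.87 on chromosome 19, where Slc25a28 and Slc25a45 lie. Subtracting the neighbours narrowed the range in 4 of the 5 carriers, with Slc25a45 the exception, and in 15 of the other 31. Slc25a45 stayed at −3.96, −2.10 and −1.92 after that subtraction, and Slc25a24 on chromosome 3 kept most of its spread, with −1.37, 1.15 and −2.88 against neighbours at −0.02, 0.44 and 0.24. DNA copy number was not measured, and its part in these values was not tested.

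**Figure D5:**
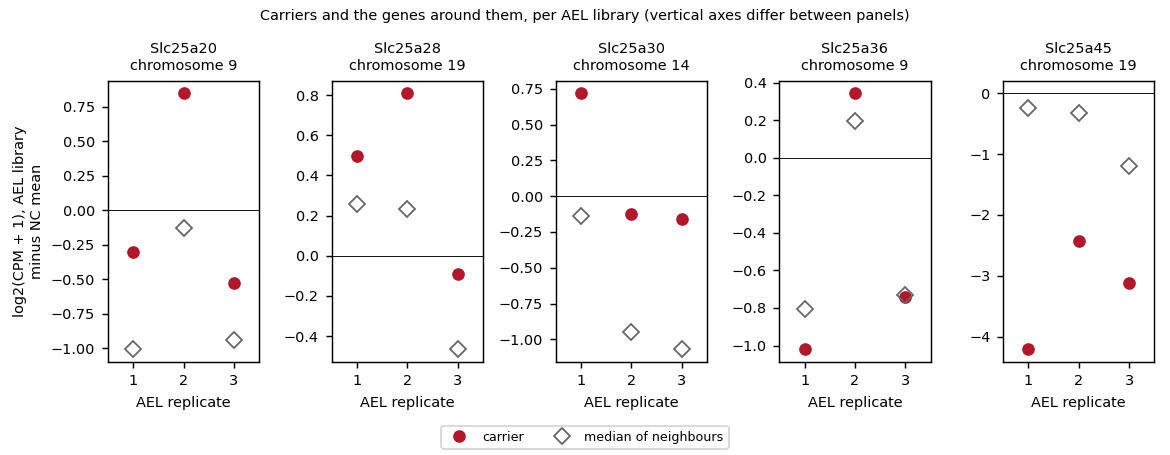
Log2(CPM + 1) of each AEL library minus the NC mean for the 5 carriers whose neighbours varied most (red points) and for the median of genes within 10 Mb (grey diamonds); vertical axes differ between panels. For Slc25a30 and Slc25a36, carrier and neighbours share both the highest and the lowest AEL replicate. Slc25a20 shares only the highest, replicate 2, while replicate 1 is lowest for its neighbours and replicate 3 for the carrier. Slc25a28 shares only the lowest, replicate 3, while replicate 1 is highest for its neighbours and replicate 2 for the carrier. Slc25a45 shares neither and lies far below its neighbours.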

How the data were processed

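Poly-A RNA of sorted cells was sequenced in 3 AEL and 3 NC samples. The deposited table holds whole-number counts per gene whose library totals differ, despite the CPM in its name. Per the submitters' processing notes, mm10 and edgeR 3.32.1 are listed without saying what for; aligner, counter and strandedness are not given in the sources. Counts were fitted over the whole table with edgeR 4.0.16 in R 4.3.3 (quasi-likelihood test, TMM factors, no term besides group, a filter of 1 CPM reached by 3 libraries or more), with p-values adjusted by Benjamini-Hochberg over 12427 genes at 0.05, and the script was tested on simulated data. CPM values are TMM-scaled, each SE was obtained from the log2 fold change and the square root of its F statistic, and levels per kb use the exon union of GENCODE vM21 (GRCm38). Ratios within a library use a pseudocount of 1 CPM. Alternatives were DESeq2 1.42.0, limma 3.58.1 with 3 pseudocounts, other scalings and filters, a robust fit, a replicate block and each library left out. At these depths 3 counts equal 0.302 to 0.367 CPM by library totals alone, before the TMM scaling of the printed values. Intervals cover counting error only. No library repeats another: chi-square per degree of freedom was 47.1 to 59.0 within AEL and 4.82 to 8.81 within NC. Promoters are RefSeq's (GRCm38.p6), of the 5′-most start. Named were all carriers called at 2-fold or more and 12 carriers of central function (Slc25a1, Slc25a3, Slc25a4, Slc25a5, Slc25a11, Slc25a12, Slc25a13, Slc25a20, Slc25a28, Slc25a36, Slc25a39 and Slc25a40), plus up to 3 called genes per pathway list with the largest change, where the higher group averaged at least 10 CPM; other named genes were picked after their values were seen. A carrier and an enzyme that enter the counts are not reported here by name or in the figures. The carriers, lists and tests were chosen with earlier results of these data known.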

Additional observations from a re-analysis of the deposited data

How the results depend on the processing

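The number of carriers higher in AEL was 10 with library totals alone and 10 after quantile normalization, against 6; it was 2 to 7 and the number lower 5 to 10 when each library was left out, against 8. Over all genes, those fits gave 1915 to 3375 higher (2964 with all libraries) and 2662 to 3921 lower (3599 with all libraries), and totals alone or quantiles moved the median log2 fold change from −0.05 to 0.14 or 0.11, with 3800 higher and 3080 lower or 4040 higher and 3235 lower. DESeq2 called 6 carriers higher and 8 lower. Of all values of single carriers under the alternatives, 537 kept their direction and side of the threshold, 27 lost and 18 gained the call and 26 changed sign; the causes were not tested. Depth limits Slc25a13 and Slc25a23, with 5 and 8 reads in AEL. The filter at 5 CPM left no value for Slc25a18, Slc25a23, Slc25a35 and Slc25a47.

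The labels do not say whether equal replicate numbers pair the samples. Deviations of same-numbered AEL and NC libraries from their group means correlated at 0.06, −0.03 and −0.06. These values cannot settle pairing, since the AEL libraries varied far more (44.1%) than the NC libraries (9.01%). With the replicate block 4 carriers were higher and 7 lower, and 2241 and 3238 of all genes.

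Signs changed as follows. With library totals alone the log2 fold change was 0.016 for Slc25a17, 0.045 for Slc25a24 and 0.11 for Slc25a46. With limma at pseudocounts of 1, 0.5 and 5 CPM it was −0.045, −0.046 and −0.040 for Slc25a11 and −0.069, −0.096 and −0.0041 for Slc25a35. Quantile normalization gave −0.062 for Slc25a11, and the replicate block −0.046 for Slc25a11, −0.00065 for Slc25a20 and −0.12 for Slc25a35. Over the libraries left out, the range was −0.24 to 0.30 for Slc25a11, −0.40 to 0.44 for Slc25a20, −1.98 to 0.43 for Slc25a24, −0.079 to 0.39 for Slc25a30, −0.56 to 0.51 for Slc25a35, −0.33 to 0.010 for Slc25a42, −0.049 to 0.61 for Slc25a47 and −0.063 to 0.33 for Slc25a53. The difference in paralog ratio was 3.46 and 1.03 for Slc25a12 over Slc25a13 with pseudocounts of 0.5 and 5 CPM, against 2.71, and 0.78 for Slc25a22 over Slc25a18 at 5 CPM, against 0.33. Over the libraries left out it was −2.01 to 0.43 for Slc25a24 over Slc25a25 and −0.58 to 0.054 for Slc25a10 over Slc25a11.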
